A study of Mus musculus with 4 samples.

Results

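Il1rl1, Ccl20 and Ifitm3 encode a cytokine receptor, a chemokine and an interferon-induced membrane protein, and all 3 had a probe set among the 16755 of the deposited value table. Their rows were found by gene symbol in the authors' table of 1616 named probe sets, the only deposited source of gene names. The cells were immortalised kidney epithelial lines of C57BL/6 mice, profiled on Affymetrix whole-transcript arrays: 2 arrays of the fumarate hydratase knock out (Fh1Δ/Δ) and 2 of its wild-type control, which carries the floxed allele (Fh1fl/fl). How the deletion was made is not given in the sources used here. All 4 were cultured in normoxia, without treatment, in serum and glutamine, and the methods of the study add pyruvate and uridine for these lines. Each genotype is a cell line, so differences between the genotypes cannot be told apart from other differences between the lines, and the labels do not say whether the biological replicates were separate cultures. P-values therefore measure only the spread between these arrays, which may be technical. Arrays of hypoxic cells were not analysed here.

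The interleukin-33 receptor ST2, encoded by Il1rl1, belongs to the IL-1 receptor family. It pairs with the accessory chain Il1rap on ligand binding and signals through Myd88 to NF-kB, and a soluble form made from the same gene binds the ligand as a decoy. Ccl20 attracts leukocytes that carry the receptor Ccr6, and epithelial cells make it on exposure to IL-1, TNF or microbial products, largely through NF-kB. Ifitm3 sits in endosomal membranes and hinders the entry of enveloped viruses, and its transcription is induced by interferons through interferon-stimulated response elements (ISREs).

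The promoter windows of the 3 genes are shown so that the motifs named below can be read in place. All 3 genes matched a RefSeq promoter of build GRCm38.p6, with 2 annotated starts for Il1rl1, and 250 bases before each start are given 5′ to 3′ with the motifs found in capitals, followed by the first 30 bases after the Ifitm3 start. Both strands were searched for 6 motifs, chosen after the sequences had been read. The ISRE core was taken as a pair of GAAA copies with any 2 bases between them. The κB-like motif was GGGAA followed by any 2 bases and then CCC. The motif of GATA factors was read as GATAAG. For the cyclic AMP response element (CRE) the letters were TGACGT. The AP-1 motif was read as TGANTCA. For the antioxidant response element they were TGACNNNGC.
Il1rl1 start 1, chr1:40429320-40429569, plus strand: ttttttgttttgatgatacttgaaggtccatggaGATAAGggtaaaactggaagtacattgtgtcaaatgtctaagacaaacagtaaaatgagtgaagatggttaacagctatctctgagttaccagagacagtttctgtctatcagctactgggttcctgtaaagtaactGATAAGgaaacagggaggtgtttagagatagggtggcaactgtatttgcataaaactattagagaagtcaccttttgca
Il1rl1 start 2, chr1:40439379-40439628, plus strand: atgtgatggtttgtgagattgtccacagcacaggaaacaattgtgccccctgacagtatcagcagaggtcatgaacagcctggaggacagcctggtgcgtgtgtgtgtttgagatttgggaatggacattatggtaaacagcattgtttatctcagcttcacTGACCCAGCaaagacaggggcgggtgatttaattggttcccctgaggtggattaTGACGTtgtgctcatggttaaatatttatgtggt
Ccl20, chr1:83116516-83116765, plus strand: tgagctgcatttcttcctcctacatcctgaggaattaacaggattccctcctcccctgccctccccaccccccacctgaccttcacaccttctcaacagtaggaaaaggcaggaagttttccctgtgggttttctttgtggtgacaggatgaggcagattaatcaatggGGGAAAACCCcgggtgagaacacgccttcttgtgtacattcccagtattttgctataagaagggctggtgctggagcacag
Ifitm3, chr7:141010745-141010994, minus strand: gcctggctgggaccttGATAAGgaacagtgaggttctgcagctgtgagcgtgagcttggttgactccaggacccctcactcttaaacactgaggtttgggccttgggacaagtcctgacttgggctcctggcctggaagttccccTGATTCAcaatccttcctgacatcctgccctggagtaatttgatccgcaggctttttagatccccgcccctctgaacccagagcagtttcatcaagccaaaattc
Ifitm3 after the start, chr7:141010715-141010744, minus strand: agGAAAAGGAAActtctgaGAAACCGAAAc

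Counted from each annotated start, with the first transcribed base as 1 and the base before it as -1, the Ifitm3 window held ISRE cores that began at 3 and at 20. The ISRE core was found in 3.44% of 32851 RefSeq promoter windows, each from 250 bases before to 50 after a start. The Ccl20 window held a κB-like motif at -81, which 1.75% of all windows hold. At the first start of Il1rl1 the window held GATA motifs at -216 and -79 (7.44% of all windows hold at least 1), and at the second start a CRE motif at -34 (7.51%) and an antioxidant response element at -88 (12.4%). Ifitm3 also held a GATA motif at -234 and an AP-1 motif at -105 (AP-1 in 7.81% of all windows). None of these motifs overlapped another. They are matches of letters, and no binding was measured. Of the 6 named interferon-stimulated genes described below, 5 had a promoter window. Of these, Ifitm3 held the ISRE core and the other 4 did not. The motif was chosen after the Ifitm3 window had been read, and 3.44% of all windows hold it. This count therefore does not set Ifitm3 apart from the others.

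Il1rl1 was the member with the largest difference. Its log2 expression was 11.05 and 10.97 on the Fh1fl/fl arrays and 6.81 and 6.73 on the Fh1Δ/Δ arrays. In Fh1fl/fl cells it lay at percentile 95.8 of all genes by level, and in Fh1Δ/Δ cells at percentile 44.5, just below the array medians of 7.32 and 7.26. The log2 difference, Fh1Δ/Δ minus Fh1fl/fl, was -4.24 (standard error 0.11 from limma), which is an 18.9-fold lower signal, and the 4 pairings of arrays gave -4.32 to -4.16. Only 2 of the 16752 genes tested had a more negative difference, Ddx3y and Eif2s3y of the Y chromosome, which are described below.

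Ifitm3 was also lower in Fh1Δ/Δ cells. Its log2 expression was 9.83 and 10.11 on the Fh1fl/fl arrays and 7.74 and 7.21 on the Fh1Δ/Δ arrays. The difference was -2.50 (standard error 0.21 from limma), a 5.64-fold lower signal, and ranged from -2.90 to -2.09 over the pairs. The level moved from percentile 87.2 of all genes to percentile 52.2. Members of the Ifitm family are similar in sequence, and which of them the probes of this probe set can bind was not examined.

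Ccl20 moved the other way. Its log2 expression was 8.83 and 8.62 on the Fh1fl/fl arrays and 10.69 and 10.84 on the Fh1Δ/Δ arrays. The difference was 2.04 (standard error 0.13 from limma), a 4.11-fold higher signal, and ranged from 1.86 to 2.22 over the pairs. From percentile 70.8 by level it moved to percentile 94.4, so that Ccl20 was among the brighter genes of both lines, and 67 genes had a larger increase.

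**Figure D1:**
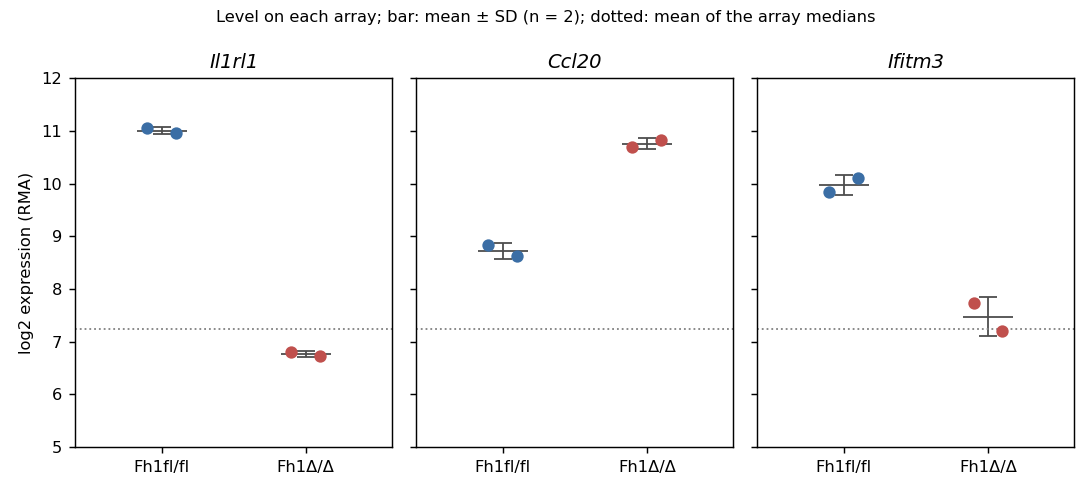
Log2 expression (RMA) of Il1rl1, Ccl20 and Ifitm3 on each of the 4 arrays, with points for arrays, the mean ± SD (n = 2) as bars and the mean of the 4 array medians as a dotted line. Il1rl1 falls from percentile 95.8 of genes to just under the dotted line, Ifitm3 stops near it, and Ccl20 is above it in both lines.

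For all 3 genes the arrays of the genotypes did not overlap, but this alone says little on 4 arrays: 25.6% of all genes had both Fh1Δ/Δ arrays above both Fh1fl/fl arrays, and 40.7% had them below. The 3 genes were chosen from this same contrast in the authors' table, whose probe sets all passed the authors' own adjusted threshold. Their differences are therefore given as a description, without a p-value. Median differences were -0.10 on chromosome 1, which carries Il1rl1 and Ccl20, -0.11 on chromosome 7, which carries Ifitm3, and -0.11 over all genes, small beside the differences of the 3 genes.

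**Figure D2:**
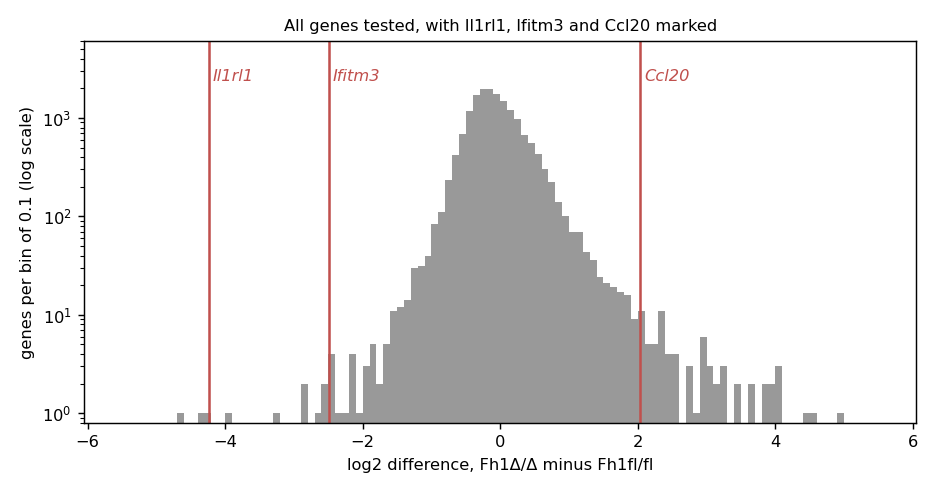
Histogram of the log2 difference, Fh1Δ/Δ minus Fh1fl/fl, of all 16752 genes in bins of 0.1, with the gene count on a log scale and vertical lines at the 3 genes. Il1rl1 (-4.24) and Ifitm3 (-2.50) lie in the thin left tail and Ccl20 (2.04) in the right tail.

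The gap between replicates differed among the 3 genes, and is given as a description, since the authors' threshold that chose them also rests on the spread. The Fh1Δ/Δ arrays were 0.53 apart for Ifitm3, a wider gap than for 93.5% of all genes, whose median gap was 0.15. For Il1rl1 they were 0.08 apart, wider than for 27.3% of genes, and for Ccl20 0.15 apart, wider than for 48.6%. Between the Fh1fl/fl arrays the gaps were 0.09 for Il1rl1, 0.21 for Ccl20 and 0.27 for Ifitm3, against a median of 0.14. The size of the Ifitm3 decrease was thus the least precise of the 3.

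Among named genes, those with the pattern nearest to each member over the 4 arrays were found by the Euclidean distance between log2 values, after each gene was centred on its own mean. Nearest to Il1rl1 were Ddx3y (distance 0.16), Eif2s3y (0.44) and Rasgrp3 (0.48), with log2 differences of -4.39, -4.66 and -3.90. Ddx3y and Eif2s3y lie on the Y chromosome. Log2 levels on the Fh1fl/fl and the Fh1Δ/Δ arrays were 8.90 and 8.75 against 4.50 and 4.38 for Ddx3y. For Eif2s3y they were 8.70 and 8.43 against 3.93 and 3.88. On the Fh1Δ/Δ arrays both genes were dimmer than the lower quartiles (5.37 and 5.53), so the lines also differed in genes of that chromosome. The part of this in the difference of Il1rl1 was not tested. Nearest to Ccl20 were Reep6 (0.09), Pck2 (0.11) and Gpt2 (0.16), with differences of 2.00, 1.96 and 1.98. Nearest to Ifitm3 were Gna14 (0.30), 9930023K05Rik (0.38) and Zfp334 (0.46), with differences of -2.20, -2.35 and -2.59. Such distances over 4 arrays mostly reflect the size of the difference between the lines.

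The targeted gene and the background of the comparison were as follows. Fh1 had a log2 expression of 10.46 ± 0.02 in Fh1fl/fl cells and 9.17 ± 0.05 in Fh1Δ/Δ cells (SD, n = 2), which is -1.29 on the log2 scale (limma, standard error 0.11, adjusted p = 0.00579), and its probes were not placed on exons. At an adjusted p under 0.05, limma called 10.2% of the 16752 genes, with 1044 (6.23%) higher in the knock out and 668 (3.99%) lower. Of these calls 61.0% were higher, and 43.4% after each array was centred on its median. Only probe sets that passed the authors' own threshold carry a name, so among named genes 41.2% were called higher and 23.0% lower, and list members without a name were not looked at. That threshold rests on this same contrast. The adjusted p-values of all named genes given here therefore describe them and are not independent support. Among the kidney epithelial markers described here, Emx2, a transcription factor of the developing kidney, was lower in Fh1Δ/Δ cells (log2 difference -1.12, adjusted p = 0.0174 from limma), from a log2 level of 9.53. It missed the threshold without Fh1Δ/Δ replicate 2 (adjusted p = 0.0533) or Fh1fl/fl replicate 2 (0.0643). The defining markers Cdh1, Epcam, Krt8 and Krt18 had no name. None of 10 macrophage, 12 fibroblast or 9 endothelial markers had a name. Of 10 mast cell markers, which matter for Il1rl1 because mast cells express it strongly, Kit alone was named, and its log2 level of 5.36 in Fh1Δ/Δ cells and 6.26 in Fh1fl/fl cells lay in the dimmer part of the range. It fell by 0.90 (adjusted p = 0.0225 from limma) and missed the threshold without Fh1Δ/Δ replicate 1 or either Fh1fl/fl array (0.0636 to 0.0913). Of 11 markers of T cells and group 2 innate lymphoid cells, which also carry ST2, Gata3 alone was named, 0.78 higher in Fh1Δ/Δ cells (adjusted p = 0.0233 from limma) and short of the threshold whichever array was left out (0.0526 to 0.106). The part of other cell types in the differences was not tested.

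The named receptors of the IL-1 family other than Il1rl1 also differed between the lines. Since names follow the authors' threshold in this contrast, that they differed was largely set in advance. Of 22 genes of receptors and ligands of the family, 4 were named, and all passed the test or belonged to the choice: Il1rl1, Il1r1 and Il18rap were lower and Sigirr was higher. Without Il1rl1, 1 of the 3 others was higher and 2 lower, with a median difference of -1.29. The median was 0.38 over all named genes and -0.11 over all genes. Limma called 41.2% of named genes higher and 23.0% lower, and 6.23% and 3.99% of all genes. Il1r1, the signalling receptor of IL-1, had log2 levels of 6.70 and 6.86 on the Fh1fl/fl arrays and 5.36 and 4.93 on the Fh1Δ/Δ arrays. It fell by 1.64 on the log2 scale (limma, standard error 0.18, adjusted p = 0.0103), and at a mean of 5.14 it was dimmer in Fh1Δ/Δ cells than the lower quartile of either array (5.37 and 5.53), so the size is uncertain. Il18rap, the accessory chain of the IL-18 receptor, had levels of 10.43 and 10.48 against 9.15 and 9.19, and fell by 1.29 (limma, standard error 0.11, adjusted p = 0.00576). Unlike Il1r1 it remained bright in Fh1Δ/Δ cells, at percentile 76.2 of all genes.

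Sigirr, a receptor of the family that restrains signalling by IL-1 and IL-33, rose. Its levels were 7.35 and 7.47 on the Fh1fl/fl arrays and 8.51 and 8.57 on the Fh1Δ/Δ arrays, 1.13 higher (limma, standard error 0.12, adjusted p = 0.00869). Without Fh1Δ/Δ replicate 1 the adjusted p was 0.0518. Il33, the ligand of ST2, and its co-receptor chain Il1rap had no name in the deposited table.

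Il1r1, Il1rl1 and Il18rap belong to a cluster of IL-1 family receptor genes on chromosome 1, and the probe sets of Il1r1 and Il18rap each stood 2 places from that of Il1rl1 in the order of the array. The probe sets between them differed less. The probe set between Il1r1 and Il1rl1 had a difference of -0.33 (adjusted p = 0.130 from limma), at a dim level of 4.85 in Fh1fl/fl cells. That between Il1rl1 and Il18rap was well expressed, at 8.36 in Fh1fl/fl and 8.63 in Fh1Δ/Δ cells, and had a difference of 0.26 (adjusted p = 0.161 from limma). Neither carries a name, so neither was in the authors' table of named probe sets for this contrast, and the lack of a call was largely set in advance. The same holds for the other unnamed neighbours given here, so they do not show whether the differences are confined to single genes. Of the 10 nearest probe sets around Il1rl1, the 8 without a name had differences from -0.42 to 0.26 and none passed the test. Around Ccl20, Rhbdd1, 4 places away and taken up here for its position, was higher by 1.07 (adjusted p = 0.0174 from limma), while the adjacent Agfg1 had -0.12 (adjusted p = 0.459) and the 8 unnamed ones ranged from -0.57 to 0.30 with none called. Around Ifitm3 the adjacent named gene was Sigirr, which rose while Ifitm3 was lower, and BC066028, 5 places away, was higher by 1.24 (adjusted p = 0.00862 from limma). The 8 unnamed neighbours of Ifitm3 ranged from -0.40 to 0.45 and none was called.

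**Figure D3:**
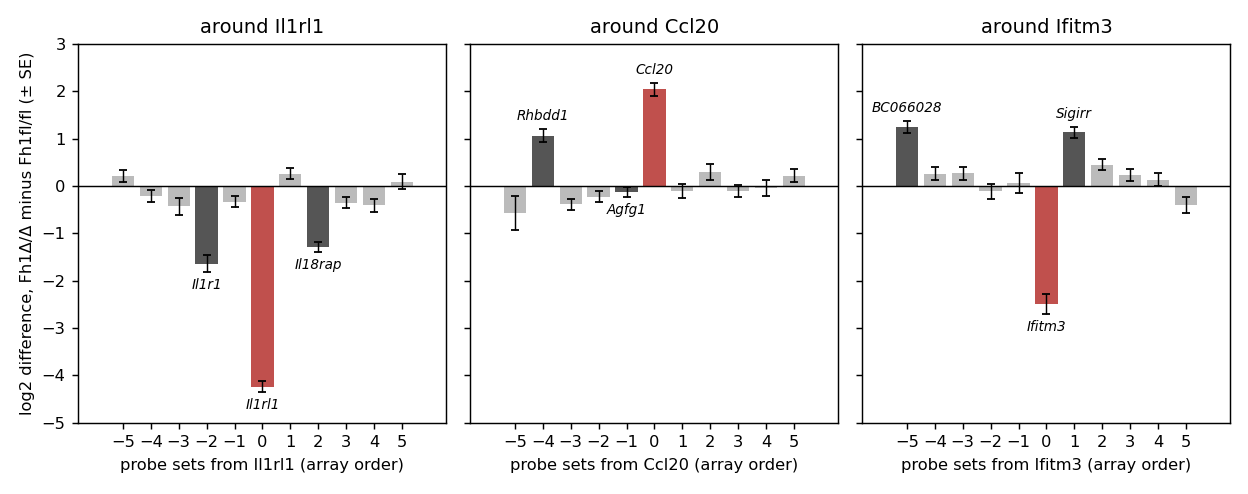
Log2 difference, Fh1Δ/Δ minus Fh1fl/fl (bars, with the standard error from limma), of each of the 3 genes in red and of the 5 probe sets on either side in the order of the array, named ones in dark grey and unnamed ones in light grey. Il1r1 and Il18rap are lower on either side of Il1rl1. The unnamed probe sets in between, which were not in the authors' table of named probe sets, differ by -0.33 and 0.26.

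Downstream of these receptors, 3 of 20 signalling genes were named, of which none rose and 2 fell, with a median difference of -0.63. For comparison, 41.2% of all named genes were called higher and 23.0% lower (6.23% and 3.99% of all genes). Ube2n, a ubiquitin-conjugating enzyme that works with Traf6, had levels of 8.85 and 8.73 against 7.47 and 7.38 and fell by 1.36 on the log2 scale (standard error 0.12, adjusted p = 0.00579 from limma). Map3k7ip2, now called Tab2, the adaptor that links Traf6 to the kinase Map3k7, fell by 0.63 (adjusted p = 0.0413 from limma). Both lie on chromosome 10, whose median difference was -0.30. With the median shift of each chromosome removed the difference of Map3k7ip2 was -0.33 (adjusted p = 0.161 from limma), and it missed the threshold without any of the 4 arrays too (adjusted p = 0.0881 to 0.148). Myd88, an adaptor of IL-1 receptor signalling, did not pass, with levels of 8.63 and 8.71 against 9.11 and 9.13 and a difference of 0.45 (adjusted p = 0.0621 from limma). It passed under a filter on dim probe sets (adjusted p = 0.0270 without the dimmest 25% and 0.00992 without the dimmest 50%) and with a trended prior (0.0175).

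Of 40 chemokine ligands, Ccl20 and Cxcl17 were named. Cxcl17, a chemokine of mucosal surfaces, had levels of 6.44 and 6.40 on the Fh1fl/fl arrays and 5.69 and 5.71 on the Fh1Δ/Δ arrays, and fell by 0.72 (standard error 0.11, adjusted p = 0.0234 from limma). It missed the threshold without any of the 4 arrays, with adjusted p from 0.0671 to 0.10. The difference of Ccl20 thus stood beside a smaller one in the opposite direction in the other named ligand. None of 24 chemokine receptors had a name, Ccr6 included.

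The NF-kB list, which holds Ccl20, had 7 named genes of 52, Ccl20 included. Of the other 6, 4 were higher and 2 lower, with a median difference of 0.87, against 0.38 over all named genes. Among all named genes 41.2% were called higher and 23.0% lower (6.23% and 3.99% of all genes). Mmp13, a collagenase, had levels of 6.12 and 5.77 against 10.34 and 9.61 and rose by 4.02 (limma, standard error 0.27, adjusted p = 0.00314). Tnfaip2, a gene induced by TNF, had levels of 7.39 and 7.32 against 9.61 and 9.65 and rose by 2.27 (limma, standard error 0.11, adjusted p = 0.00177), close to Ccl20 in size. Gadd45b, a stress-induced gene, fell by 1.22 from 11.36 ± 0.04 to 10.14 ± 0.12 (SD, n = 2, adjusted p = 0.00809 from limma). It lies on chromosome 10, and with the chromosome shifts removed its difference was -0.92 (adjusted p = 0.0169 from limma). Of the 7 genes, Ccl20 held the κB-like motif in its promoter window and the other 6 did not. The motif was chosen after the Ccl20 window had been read, and 1.75% of all windows hold it. This count therefore does not set Ccl20 apart from the others.

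Of 95 interferon-stimulated genes, 6 were named, Ifitm3 included. Of the other 5, 2 were higher and 1 lower, with a median difference of -0.09, against 0.38 over all named genes. The shares called higher and lower were 41.2% and 23.0% of named genes, and 6.23% and 3.99% of all genes. Ifi202b, a DNA-binding protein of the interferon-inducible p200 family, had levels of 5.77 and 5.48 on the Fh1fl/fl arrays and 9.20 and 8.60 on the Fh1Δ/Δ arrays, and rose by 3.28 (limma, standard error 0.23, adjusted p = 0.00354). In Fh1fl/fl cells its mean of 5.63 was at the lower quartile of the arrays (5.64 and 5.70), which leaves the size uncertain. Ifi202b lies on chromosome 1, as does the targeted gene Fh1, with probe set numbers 6764289 and 6764351. The part of this position in the difference of Ifi202b was not tested. Irf8, a transcription factor of the interferon regulatory family, had levels of 6.44 and 6.49 against 7.57 and 7.60, and rose by 1.12 (limma, standard error 0.11, adjusted p = 0.00787). Ifitm3 and these 2 genes therefore moved in opposite directions. Dtx3l, a ubiquitin ligase, fell by 0.56 (adjusted p = 0.0442 from limma), and missed the threshold with the chromosome shift removed (0.152), with the replicate number as a block (0.0564) and without any of the arrays (0.0945 to 0.188). Its partner Parp9 had -0.51 (adjusted p = 0.0643), and passed with each array centred on its median (0.0424), with quantile normalization (0.0399), with a trended prior (0.0344) and without the dimmest 25% of probe sets (0.0272). Of the 7 genes of the Ifitm family, Ifitm3 alone was named.

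**Figure D4:**
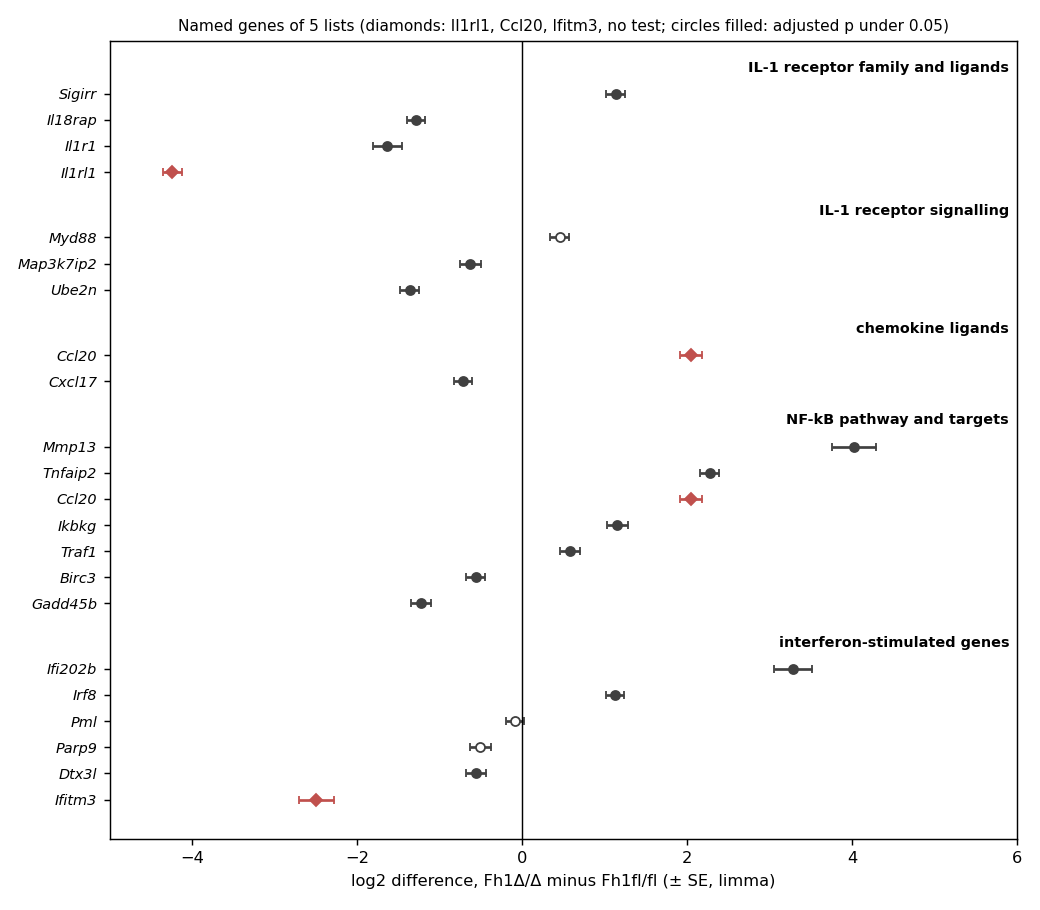
Log2 difference, Fh1Δ/Δ minus Fh1fl/fl, with the standard error from limma, of every named gene in 5 lists. Red diamonds are Il1rl1, Ccl20 and Ifitm3, for which no test is given, filled circles passed an adjusted p under 0.05, and open circles did not. Il1rl1, Il1r1 and Il18rap lie left of 0 and Sigirr right of it, and Ifitm3 (-2.50) and Ifi202b (3.28) lie at opposite ends of the interferon list.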

How the data were processed

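Total RNA of 4 samples, 2 per genotype, was hybridised to Affymetrix whole-transcript arrays. RMA, Partek and the build mm9 are named in the submitters' processing notes. For 16755 probe sets the authors deposited RMA log2 values. Columns with the authors' own fold changes and p-values, and 12 value columns of other arrays, were not used. Values were fitted with limma 3.58.1 in R 4.3.3 (lmFit, eBayes) by genotype alone, and p-values were adjusted by Benjamini-Hochberg over 16752 genes, where a duplicated name kept its brighter probe set; the fit was tested on simulated data. Of 1616 names, 1608 matched RefSeq. Unnamed probe sets took the chromosome of neighbours in probe set order, a rule that was right for 1506 of 1519 named probe sets. The members and gene lists were chosen with earlier results of these data known. Named are the 3 genes, Fh1, all named IL-1 family, chemokine ligand and Ifitm genes, up to 4 genes of each other list by size of difference, the 3 genes nearest in pattern to each member, and named array neighbours. The small number of arrays sets the precision. Alternatives were a replicate block, each array left out, quantile normalization, median centring, filters on dim probe sets, a trended or no variance prior and, for gene calls only after seeing the data, removal of chromosome shifts. A withheld item is not reported here.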

Additional observations from a re-analysis of the deposited data

How the results depend on the processing

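The directions of Il1rl1, Ccl20 and Ifitm3 were the same under every alternative run for them. The arrays of the genotypes did not overlap for these genes, so leaving out an array could not reverse a direction. The log2 difference of Il1rl1 was -4.14 with the chromosome shifts removed and -4.33 with each array centred on its median, both beyond its small replicate SD of 0.06, and that of Ccl20 and Ifitm3 stayed within theirs. Without 1 array, the difference ranged from -4.28 to -4.20 for Il1rl1, from 1.94 to 2.14 for Ccl20 and from -2.76 to -2.23 for Ifitm3. The replicate block has 1 array of each genotype per number, so by design it left these differences at -4.24, 2.04 and -2.50. With it, 1009 genes were called higher and 749 lower. Deviations of same-numbered arrays correlated at 0.11 across genes, and the labels do not say that a number marks a shared culture. Of all genes, without 1 array 205 to 480 were called higher and 81 to 322 lower. The trended prior called 1854 higher and 1471 lower, filters on the dimmest 25% and 50% called 1749 and 1693 higher and 1526 and 1245 lower, median centring called 1052 lower, and the chromosome setting called 363 lower and moved the median of all genes from -0.11 to -0.00477. The unmoderated test called 0 higher and 0 lower, with 3668 genes at an unadjusted p under 0.05. Of the 25 list genes called besides the 3 members, all kept their direction wherever tested, and 11 to 15 still passed without 1 array.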

Other observations

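Named receptors for other cytokines included 4 that were higher in Fh1Δ/Δ cells. Of 61 cytokine receptor genes outside the IL-1 family, 5 were named, 4 rose in Fh1Δ/Δ cells and none fell (41.2% of all named genes and 6.23% of all genes were called higher), with a median difference of 1.11, against 0.38 over all named genes. Osmr, the receptor of oncostatin M, had log2 levels of 7.14 and 7.02 on the Fh1fl/fl arrays and 8.49 and 8.42 on the Fh1Δ/Δ arrays, and rose by 1.38 (limma, standard error 0.12, adjusted p = 0.00568). Its signalling partner Il6st, shared by the IL-6 family, rose by 0.57 from 10.17 ± 0.02 to 10.74 ± 0.06 (SD, n = 2; adjusted p = 0.0393 from limma), and did not pass with the chromosome shifts removed (0.0658), with median centring (0.0530) or without any of the 4 arrays (0.0790 to 0.159). Ghr, the growth hormone receptor, rose by 1.34 (adjusted p = 0.00824 from limma). Lepr, the leptin receptor, rose by 1.11 (adjusted p = 0.0115 from limma) from a mean of 5.08 below the lower quartiles of the Fh1fl/fl arrays, and did not pass without Fh1Δ/Δ replicate 1 (0.0627) or Fh1fl/fl replicate 2 (0.0506).

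Of 39 genes of interferons, their receptors and Jak-Stat signalling, 4 were named, of which 2 rose, none fell and 2 did not pass. Their median difference was 0.59, against 0.38 over all named genes. Among all named genes 41.2% were called higher and 23.0% lower (6.23% and 3.99% of all genes), so 2 of 4 is near the share of named genes called higher. Tmem173, now called Sting1, the adaptor that acts after the DNA sensor Cgas, rose by 0.85 (adjusted p = 0.0344 from limma), and missed the threshold with the chromosome shifts removed (0.0536) and without Fh1Δ/Δ replicate 1 (0.106), Fh1fl/fl replicate 1 (0.0851) or Fh1fl/fl replicate 2 (0.112). E330016A19Rik, now called Cgas, the sensor of cytosolic DNA, rose by 0.80 (adjusted p = 0.0252 from limma), and missed the threshold without Fh1Δ/Δ replicate 1 (0.108), Fh1Δ/Δ replicate 2 (0.0672) or Fh1fl/fl replicate 2 (0.109). Il28ra, now called Ifnlr1, the receptor chain of interferon lambda, had a difference of -0.44 (adjusted p = 0.0627 from limma), and Jak2, a kinase of cytokine receptors, of 0.38 (0.0888). Both passed without the dimmest 25% of probe sets (0.0275 and 0.0453) and with a trended prior (0.0487 and 0.0295), and Il28ra also with median centring (0.0472).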
